A study of Mus musculus with 16 samples.

Results

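The angiopoietin and Tie receptor genes are Angpt1 and Angpt2, which code for secreted ligands, Tek and Tie1, which code for the receptors Tie2 and Tie1, and Ptprb, which codes for the vascular endothelial protein tyrosine phosphatase. They were taken by gene symbol, as 5 of the 21804 genes in the count table, and all 5 were tested in every comparison. The RNA came from 8 mice aged 4 months on a C57BL/6 background, 4 that were Pdgfb ret/ret and 4 that were Pdgfb ret/wt, with 1 library from cortex and 1 from thalamus of each animal. The ret allele is a germline change that removes the retention motif of the growth factor PDGF-B, which draws pericytes to endothelium. All 8 animals carried at least 1 ret allele, so the ret/wt controls were not wild type. Tissue from ret/ret thalamus was cut out as calcifications, which were located by their autofluorescence, and the matching area was taken from ret/wt animals, which form none, so genotype and dissection cannot be told apart in thalamus. The libraries were made from polyA-selected RNA with a stranded kit, and 4 groups of 4 resulted: ret/wt cortex, ret/ret cortex, ret/wt thalamus and ret/ret thalamus.

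Tie2 is a receptor tyrosine kinase of endothelial cells. Angiopoietin-1, made largely by cells outside the endothelium, activates it and keeps vessels quiescent, and angiopoietin-2, made and stored by endothelial cells, is a context-dependent agonist or antagonist that loosens vessels. Tie1 binds neither angiopoietin well and acts as a partner of Tie2, and the phosphatase encoded by Ptprb removes phosphate from Tie2 and from VE-cadherin. In the brain the system is known for its part in the maturation of vessels and in barrier integrity.

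All 5 genes are protein-coding on GRCm38 in GENCODE M21. Angpt1 (ENSMUSG00000022309) spans chromosome 15, 42424723 to 42676977 on the minus strand, and an antisense gene, Gm17473, overlaps its exons. Whether the counting used strand is not given in the sources used here, so Angpt1 reads and reads of that antisense gene may not be separated. Angpt2 (ENSMUSG00000031465) spans chromosome 8, 18690263 to 18741562 on the minus strand, opposite to Mcph1, with no shared exon. Tek (ENSMUSG00000006386) spans chromosome 4, 94739289 to 94874976 on the plus strand, and Tie1 (ENSMUSG00000033191) lies on the same chromosome at 118471191 to 118490061 on the minus strand. Ptprb (ENSMUSG00000020154) spans chromosome 10, 116275523 to 116389535 on the plus strand.

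The promoters of the receptor genes Tek and Tie1 are shown to compare both receptors, and they are the 2 of the 5 promoters held in the sequence table used here. The log2 CPM of both genes over the 16 libraries had a Pearson r of 0.695, a description over libraries that share animals and groups. CPM here are counts relative to each library's total, after TMM scaling (trimmed mean of M-values) of the 16 libraries. The sequences are those of RefSeq on GRCm38.p6, 250 bases before to 50 bases after the start that RefSeq gives, written along the gene's strand. Capitals mark GGAA on either strand (GGAA or TTCC), the core bound by ETS factors, a family that includes endothelial regulators. Tek lies at chr4:94739039-94739338 on the plus strand and Tie1 at chr4:118489800-118490099 on the minus strand. For Tek that start is the GENCODE one, whereas for Tie1 it is 118489849, inside the GENCODE span that begins at 118490061, so most of the Tie1 window lies within the gene as GENCODE draws it.
Tek: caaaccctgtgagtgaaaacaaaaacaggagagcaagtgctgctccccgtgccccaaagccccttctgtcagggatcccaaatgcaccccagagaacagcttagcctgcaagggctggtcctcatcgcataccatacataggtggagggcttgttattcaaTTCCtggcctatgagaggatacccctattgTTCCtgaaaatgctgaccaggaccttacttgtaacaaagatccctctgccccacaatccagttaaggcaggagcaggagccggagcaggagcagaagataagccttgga
Tie1: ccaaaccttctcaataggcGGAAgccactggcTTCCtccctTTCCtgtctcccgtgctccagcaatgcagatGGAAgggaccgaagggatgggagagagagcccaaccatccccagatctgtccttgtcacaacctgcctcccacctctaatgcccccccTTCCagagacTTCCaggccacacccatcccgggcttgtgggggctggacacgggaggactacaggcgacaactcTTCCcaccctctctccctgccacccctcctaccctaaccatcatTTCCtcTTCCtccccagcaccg

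The Tek window held GGAA 2 times and the Tie1 window 9 times, where the median of 32851 mouse promoters of this length was 3 and 96.0% held at least 1. The motif GATAA, bound by GATA factors, was found 1 time in Tek and 0 times in Tie1, and 25.4% of promoters held it on either strand. TATAAA (13.6% of promoters) and GTAAACA, a forkhead core (3.65% of promoters), were found 0 times in both windows. The Tek window had 3 CG pairs and a GC content of 52.0%, and the Tie1 window had 7 CG pairs and a GC content of 60.3%, beside medians of 7 and 52.7% over all promoters. Matches of different motifs did not overlap, and a match is a description of the sequence alone.

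Total counts ran from 13415391 to 29135064 per library, and each member had counts in every library, with 20.5 to 341 counts for Angpt2, 22.7 to 256 for Angpt1, 99.2 to 532 for Tie1, 143 to 540 for Tek and 619 to 3072 for Ptprb. Several libraries stood apart. Y-linked Ddx3y reads were at 923 to 1574 counts in both libraries of ret/wt replicate 3 and ret/ret replicate 2 and at 3 counts or fewer in the others. The cortex libraries of the same animals held cerebellar markers, at 974 and 2357 CPM summed over 5 genes, and ret/wt cortex replicate 4 held choroid plexus markers at 1125 CPM summed over 5 genes. Endothelial markers summed over 13 genes were highest of their group in ret/ret replicate 1, at 658 CPM in cortex and 775 CPM in thalamus. The other ret/ret libraries were at 357 to 475 CPM in cortex and 399 to 533 CPM in thalamus. The thalamus marker Tcf7l2 was at 18.3 to 219 CPM in the 8 thalamus libraries and at 2.41 to 7.36 CPM in the 8 cortex libraries, while Prkcd, a marker of thalamic relay nuclei, varied from 10.8 to 1155 CPM among thalamus libraries. Mitochondrial genes took 3.22% to 8.43% of counts in ret/wt cortex, 4.29% to 7.04% in ret/ret cortex, 4.24% to 8.80% in ret/wt thalamus and 5.87% to 12.1% in ret/ret thalamus.

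Per length of exon, Ptprb had the highest level of the 5 genes in every group, Tek and Tie1 followed, and the ligands were lowest. Over all 16 libraries the mean level was 5.38 CPM per kb for Ptprb, 3.31 for Tek, 2.57 for Tie1, 1.73 for Angpt2 and 1.51 for Angpt1. In ret/wt cortex the levels were 3.39 ± 0.59 CPM per kb for Ptprb (SD, n = 4), 2.75 ± 1.23 for Tek, 1.68 ± 0.60 for Tie1, 1.46 ± 0.75 for Angpt1 and 0.480 ± 0.191 for Angpt2. Neighbours in this order were within the larger SD of each other, except that Angpt2 stood below Angpt1 by more than that. In ret/ret cortex the mean of Angpt2 was above that of Angpt1, but the libraries were divided. Angpt2 over Angpt1 was 3.97, 0.700, 8.11 and 0.793 there (replicates 1 to 4), and 1.29 in ret/wt cortex replicate 1. In ret/ret cortex Ptprb was at 8.10 ± 3.15 CPM per kb (SD, n = 4), Tek at 3.40 ± 1.02 and Tie1 at 3.11 ± 0.92. Angpt2 was at 2.53 ± 1.57 and Angpt1 at 1.34 ± 0.79, and Ptprb alone stood above its neighbour by more than the larger SD. In ret/wt thalamus Ptprb was at 3.54 ± 0.39 CPM per kb (SD, n = 4), Tek at 3.40 ± 0.47, Tie1 at 2.20 ± 0.92, Angpt2 at 1.84 ± 2.46 and Angpt1 at 1.76 ± 0.61, and Tek and Tie1 were the only neighbours more than the larger SD apart. In ret/ret thalamus the levels were 6.50 ± 2.51 CPM per kb for Ptprb (SD, n = 4), 3.70 ± 1.03 for Tek, 3.28 ± 1.02 for Tie1, 2.08 ± 1.16 for Angpt2 and 1.49 ± 0.20 for Angpt1, and Ptprb stood above Tek, and Tie1 above Angpt2, by slightly more than the larger SD. These lengths take every annotated exon as used, which was not tested.

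**Figure D1:**
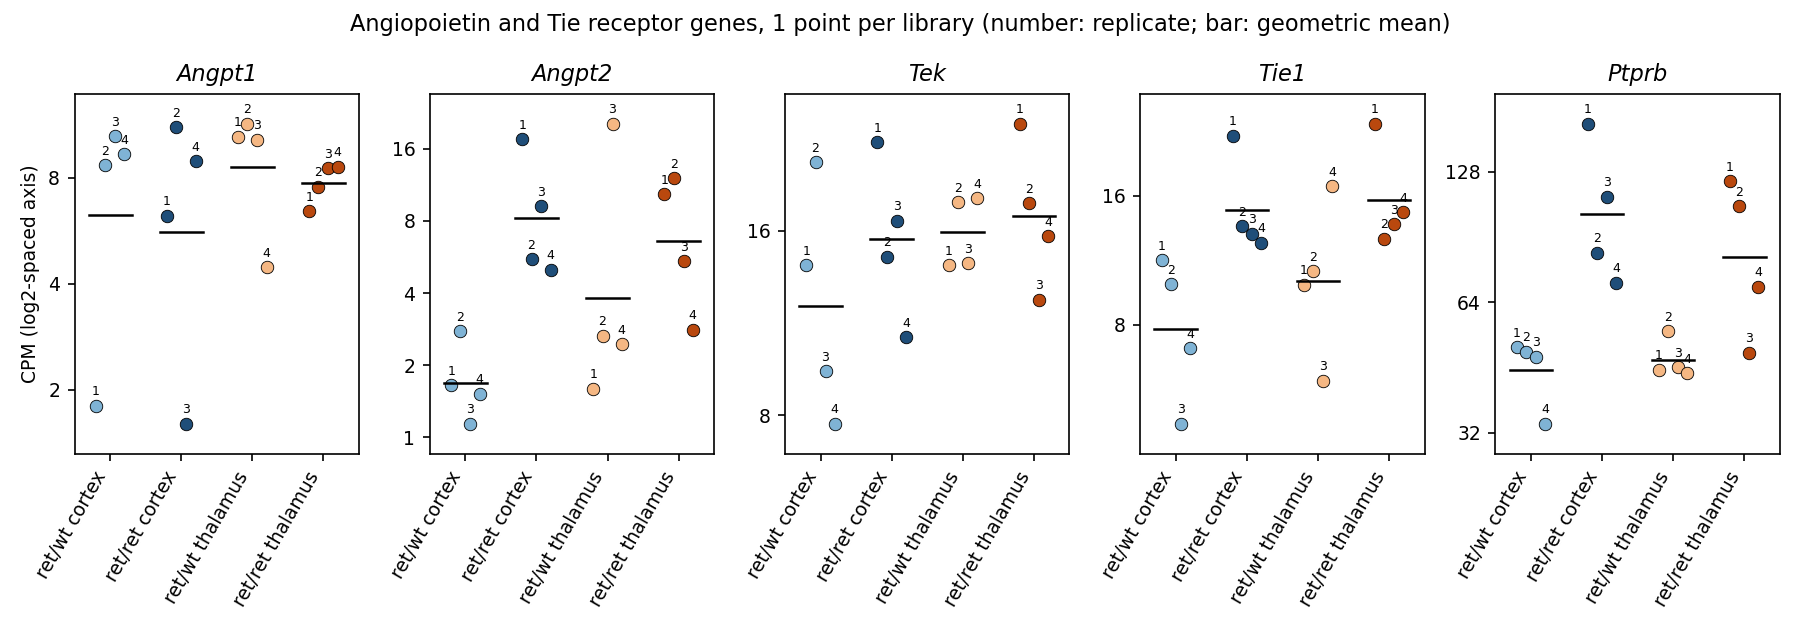
CPM of the 5 genes (y axis, log2-spaced) in the 16 libraries, by group (x axis); each point is 1 library with its replicate number and each bar is the group's geometric mean. Ptprb, Tie1 and Angpt2 are higher in all 4 ret/ret cortex libraries than in any ret/wt cortex library, Tek and Angpt1 overlap, and ret/wt thalamus replicate 3 is the highest library for Angpt2 at 20.4 CPM.

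The genotypes were compared first in cortex, where neither forms calcifications, per the series description. Angpt2, Tie1 and Ptprb were higher in all 4 ret/ret libraries than in any ret/wt library, and Tek and Angpt1 overlapped. In the quasi-likelihood fit of edgeR, adjusted by Benjamini-Hochberg over all genes, 0 of 5 passed the threshold of 0.05, against 0.021% of all genes tested. At an unadjusted p under 0.05, 3 of 5 were higher in ret/ret and 0 lower, against 2.62% of all genes higher, and the same 3 of 5 did not overlap between groups, against 1.58% of all genes. By other tools, DESeq2 called 2 of 5, Angpt2 and Ptprb (0.268% of all genes), and limma-voom called 0 of 5 (0.014%). In bulk tissue, more cells of a type and more RNA per cell cannot be told apart.

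Angpt2 was at 1.65, 2.78, 1.14 and 1.52 CPM in ret/wt cortex (replicates 1 to 4) and at 17.6, 5.53, 9.23 and 5.01 CPM in ret/ret cortex. The lowest ret/ret library was thus above the highest ret/wt library, and replicate 1 was the highest of the ret/ret libraries. The log2 fold change was 2.42 ± 0.48 (SE), a 5.35-fold difference, with a 95% interval of 1.35 to 3.49. Its unadjusted p was 0.00055 and its adjusted p 0.476 by edgeR, and DESeq2 gave an adjusted p of 0.00077 at a log2 fold change of 2.42 and limma-voom 0.597 at 2.30. Over all alternatives the adjusted p ran from 0.00077 to 1.0. Without the 2 animals with Y-linked reads, whose cortex libraries held the cerebellar markers, it was 2.43 ± 0.51, and without ret/wt cortex replicate 4 it was 2.36 ± 0.55.

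Ptprb was at 50.4, 49.2, 47.9 and 33.6 CPM in ret/wt cortex and at 165, 83.3, 112 and 71.0 CPM in ret/ret cortex. All ret/wt libraries were close to each other except the lower replicate 4, and the ret/ret libraries were spread over a wider range above them. The log2 fold change was 1.27 ± 0.27 (SE), or 2.42-fold, with a 95% interval of 0.67 to 1.88, an unadjusted p of 0.00091 and an adjusted p of 0.500 by edgeR. DESeq2 gave an adjusted p of 0.0084, limma-voom gave 0.588, and the range over all alternatives was 0.0084 to 1.0. It was 1.40 ± 0.32 without the animals with Y-linked reads and 1.16 ± 0.29 without ret/wt cortex replicate 4.

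Tie1 was at 11.3, 9.93, 4.70 and 7.05 CPM in ret/wt cortex and at 22.1, 13.6, 13.03 and 12.4 CPM in ret/ret cortex. The groups came close, with ret/wt replicate 1 just under ret/ret replicate 4, and ret/ret replicate 1 stood above the rest. The log2 fold change was 0.91 ± 0.32 (SE), or 1.88-fold, with a 95% interval of 0.20 to 1.62, an unadjusted p of 0.017 and an adjusted p of 0.999 by edgeR, 0.570 in DESeq2. It was 0.76 ± 0.31 without the animals with Y-linked reads, 0.85 ± 0.36 without ret/wt cortex replicate 4 and 0.68 ± 0.31 without ret/ret cortex replicate 1, at an unadjusted p of 0.058 in the last.

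Tek, the receptor itself, was at 14.04, 20.7, 9.45 and 7.76 CPM in ret/wt cortex and at 22.3, 14.5, 16.6 and 10.7 CPM in ret/ret cortex. The groups overlapped widely, and the log2 fold change of 0.33 ± 0.34 (SE) had a 95% interval of -0.43 to 1.08 and an unadjusted p of 0.355 by edgeR. Angpt1, the agonist ligand, was at 1.80, 8.69, 10.5 and 9.33 CPM in ret/wt cortex and at 6.24, 11.2, 1.61 and 8.92 CPM in ret/ret cortex. One library in each genotype was several times below the others, and the genotypes overlapped. Its log2 fold change was -0.11 ± 0.62 (SE), with a 95% interval of -1.48 to 1.27 and an unadjusted p of 0.868, and differences of 2-fold in either direction lie within that interval.

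The same comparison in thalamus sets calcified against uncalcified tissue of that region. Ptprb and Tie1 had higher means in ret/ret, by 1.88-fold and 1.52-fold, with some overlap, while Tek and Angpt1 were within the spread and Angpt2 depended on 1 library. None of the 5 reached an adjusted p under 0.05 by edgeR (0 of 5, against 0.0% of all genes), DESeq2 (0 of 5, against 0.257%) or limma-voom (0 of 5, against 0.0%). At an unadjusted p under 0.05 in edgeR, 1 of 5 was higher, Ptprb, against 3.05% of all genes, and 0 of 5 did not overlap between groups, against 1.7% of all genes that were higher without overlap.

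Ptprb was at 44.7, 54.8, 45.3 and 43.8 CPM in ret/wt thalamus and at 122, 107, 48.9 and 69.4 CPM in ret/ret thalamus. The groups touched only where ret/ret replicate 3 lay below ret/wt replicate 2. The log2 fold change was 0.91 ± 0.28 (SE), with a 95% interval of 0.30 to 1.53, an unadjusted p of 0.0076 and an adjusted p of 1.0 by edgeR, and the adjusted p of its alternatives lay between 0.285 and 1.0. Without the animals with Y-linked reads it was 0.79 ± 0.34. Tie1 was at 9.92, 10.6, 5.92 and 16.8 CPM in ret/wt thalamus and at 23.6, 12.7, 13.7 and 14.6 CPM in ret/ret thalamus. Only ret/wt replicate 4 reached into the ret/ret range, and the log2 fold change was 0.60 ± 0.34 (SE), with a 95% interval of -0.16 to 1.36 and an unadjusted p of 0.108 by edgeR. Without ret/wt thalamus replicate 4 it was 0.93 ± 0.31, at an unadjusted p of 0.015 and an adjusted p of 0.487.

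Angpt2 was at 1.60, 2.66, 20.4 and 2.45 CPM in ret/wt thalamus and at 10.3, 12.1, 5.43 and 2.82 CPM in ret/ret thalamus. The single ret/wt library of replicate 3 exceeded every ret/ret library, while the other ret/wt libraries lay below all of them. With all 8 libraries the log2 fold change was 0.21 ± 0.79 (SE), with a 95% interval of -1.55 to 1.98 and an unadjusted p of 0.794 by edgeR. Without ret/wt thalamus replicate 3 it was 1.81 ± 0.53, at an unadjusted p of 0.0076 and an adjusted p of 1.0, and without both animals with Y-linked reads it was 1.51 ± 0.53. Limma-voom, which works on log values, gave 0.91 with all 8 libraries.

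In ret/wt thalamus replicate 3, Angpt2 ranked 3 of 12769 genes by how far the library exceeded the next highest ret/wt thalamus library, by 2.91 on the log2 CPM scale. The Y-linked gene Kdm5d and Acot4 came before it and Prkcd, at 1155 CPM against 10.8 to 180 CPM in the other ret/wt thalamus libraries, directly after. Ret/ret thalamus replicate 2, the other animal with Y-linked reads, had the highest Prkcd of its group at 1141 CPM against 10.8 to 31.6 CPM, and also the highest Angpt2. Other thalamus libraries did not follow: ret/ret replicate 1 had 10.3 CPM of Angpt2 with 31.6 CPM of Prkcd. Ret/wt replicates 2 and 4 had 101 and 180 CPM of Prkcd with 2.66 and 2.45 CPM of Angpt2. In cortex the pattern was not seen: ret/ret replicate 2 had the highest Prkcd at 65.4 CPM and an Angpt2 level of 5.53 CPM, below 2 of the other libraries of its group, and ret/wt replicate 3 had 23.8 CPM of Prkcd and the lowest Angpt2. The part of dissected nuclei, or of sex, in the Angpt2 level was not tested. The other 4 genes did not stand apart in that library, where Tek was at 14.2, Ptprb at 45.3, Angpt1 at 10.3 and Tie1, the lowest of its group, at 5.92 CPM.

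**Figure D2:**
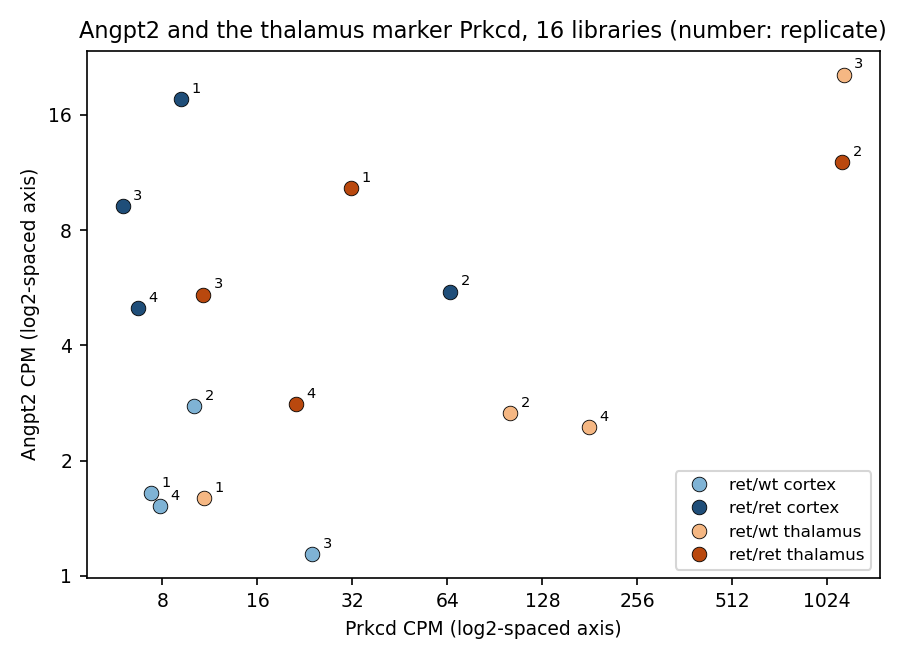
Angpt2 CPM (y axis) against Prkcd CPM (x axis), both log2-spaced, with 1 point per library, coloured by group and numbered by replicate. Both thalamus libraries with the highest Prkcd, 1155 and 1141 CPM, ret/wt replicate 3 and ret/ret replicate 2, are the highest in Angpt2 of their groups, and the ret/ret cortex libraries are high in Angpt2 with little Prkcd. Ret/ret thalamus replicate 1 has 10.3 CPM of Angpt2 with 31.6 CPM of Prkcd.

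Tek was at 14.1, 17.8, 14.2 and 18.1 CPM in ret/wt thalamus and at 23.9, 17.7, 12.4 and 15.7 CPM in ret/ret thalamus. The groups overlapped, and the log2 fold change was 0.15 ± 0.24 (SE), with a 95% interval of -0.39 to 0.70. Angpt1 was at 10.5, 11.4, 10.3 and 4.45 CPM in ret/wt thalamus and at 6.42, 7.55, 8.53 and 8.60 CPM in ret/ret thalamus. The first 3 ret/wt libraries lay above all ret/ret libraries and replicate 4 below all of them. The log2 fold change was -0.20 ± 0.30 (SE), with a 95% interval of -0.86 to 0.46, and without ret/wt thalamus replicate 4 it was -0.42 ± 0.21, at an unadjusted p of 0.076 by edgeR.

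With the counts of both regions of an animal added, so that the animal was the replicate, the genotype comparison gave 1 value per animal. Ptprb was at 47.7, 53.0, 43.9 and 38.4 CPM in the ret/wt animals and at 144, 98.3, 82.6 and 70.0 CPM in the ret/ret animals, here scaled by library total alone. The genotypes did not overlap, and the log2 fold change was 1.09 ± 0.21 (SE), or 2.13-fold, with a 95% interval of 0.63 to 1.55, an unadjusted p of 0.00038 and an adjusted p of 0.267 by edgeR. Tie1 did not overlap either, at 10.6, 10.5, 4.89 and 11.6 CPM against 23.9, 13.6, 12.96 and 13.6 CPM, and its log2 fold change was 0.77 ± 0.28 (SE), at an unadjusted p of 0.022. Angpt2 was at 1.65, 2.74, 8.72 and 1.95 CPM against 13.6, 9.08, 7.39 and 3.76 CPM, with a log2 fold change of 1.10 ± 0.57 (SE) and an unadjusted p of 0.083, and without ret/wt replicate 3 it was 2.03 ± 0.43. Tek, at 0.26 ± 0.23 (SE), and Angpt1, at -0.26 ± 0.26 (SE) on the log2 fold change scale, overlapped.

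Of the 5, 0 had an adjusted p under 0.05 in edgeR on these sums (0.0129% of all genes), 2 were higher at an unadjusted p under 0.05 (3.62% of all genes) and 2 did not overlap (2.15% of all genes). DESeq2 called 1 of 5, Ptprb, with an adjusted p of 0.00078 (0.529% of all genes), and limma-voom called 0 of 5 (0.0129%). The mean of the 2 regional contrasts in the 16-library fit, which treats both libraries of an animal as independent, called 1 of 5, Ptprb, with a log2 fold change of 1.07 and an adjusted p of 0.040 (0.222% of all genes). Ptprb was thus the member that an alternative called in both cortex and the sums, and edgeR's quasi-likelihood test on its own comparisons called none.

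**Figure D3:**
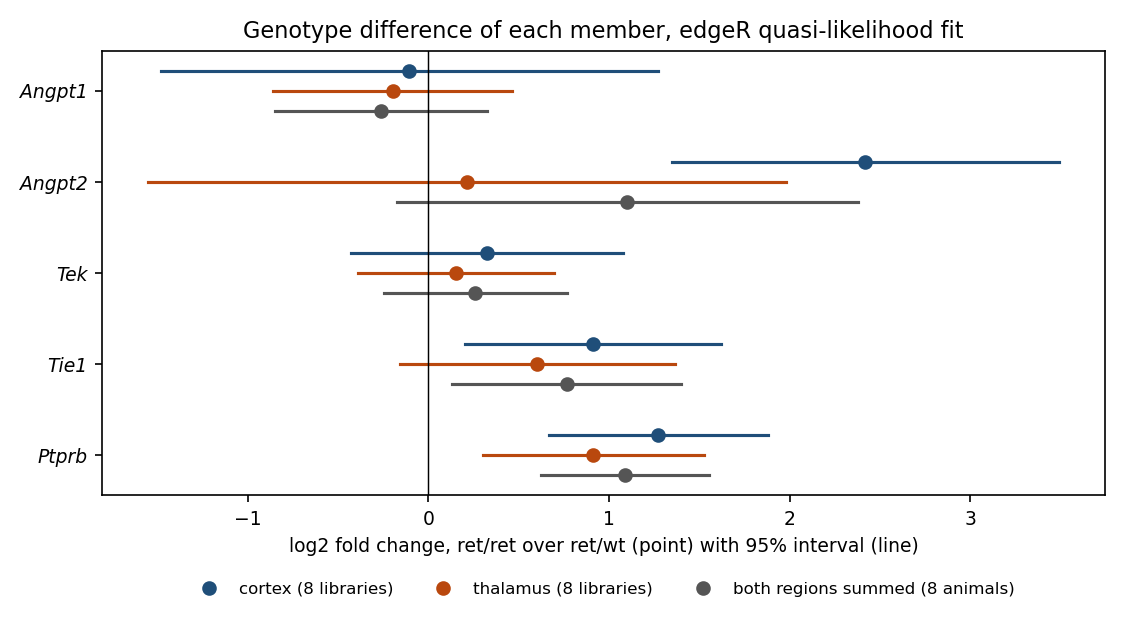
Log2 fold change of ret/ret over ret/wt (x axis, point) with its 95% interval (line) for each gene (y axis) in cortex, in thalamus and with both regions of an animal summed, from edgeR's quasi-likelihood fit. The intervals of Ptprb lie above 0 in all 3 comparisons, those of Tie1 in cortex and in the sums, and that of Angpt2 in cortex alone, while those of Tek and Angpt1 span 0.

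Whether the genotype difference itself differed between regions was tested by the interaction of genotype and region over all 16 libraries. Angpt2 had the largest term of the 5, -2.22 ± 1.02 (SE) on the log2 scale, with a 95% interval of -4.37 to -0.07, an unadjusted p of 0.044 and an adjusted p of 1.0 by edgeR. It was -0.46 ± 0.74 without ret/wt replicate 3, so the size rested on that animal, whose thalamus library held 20.4 CPM. With the animal as a block it was -1.40, and 0 of 5 genes then had an unadjusted p under 0.05. The term was -0.38 ± 0.40 for Ptprb, -0.32 ± 0.48 for Tie1, -0.19 ± 0.42 for Tek and -0.11 ± 0.73 for Angpt1. Of the 5, 0 passed at an adjusted p under 0.05 in edgeR (0.0% of all genes), DESeq2 (0.0263%) or limma-voom (0.0%), and 1 was lower at an unadjusted p under 0.05 (0.713% of all genes). No difference between regions was therefore shown for any of the 5.

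Thalamus and cortex of the same genotype were compared to describe the regional level of the genes. In ret/wt animals the 95% intervals of Angpt1, Tek, Tie1 and Ptprb spanned 0, those of Angpt1 (-0.79 to 1.34), Tek (-0.37 to 1.01) and Tie1 (-0.42 to 1.25) reaching past 2-fold, and the Angpt2 difference rested on the 1 library already described. The log2 fold change of thalamus over cortex was 1.95 ± 0.78 (SE) for Angpt2, with an unadjusted p of 0.031 and an adjusted p of 0.140 by edgeR, and 0.19 ± 0.44 without ret/wt replicate 3. With the animal as a block it was 1.07, and 0 of 5 genes then had an unadjusted p under 0.05. It was 0.42 ± 0.38 for Tie1, 0.32 ± 0.31 for Tek, 0.27 ± 0.48 for Angpt1 and 0.07 ± 0.19 for Ptprb. None of the 5 was called by edgeR (0 of 5, against 12.6% of all genes) or by limma-voom (0 of 5, against 12.4%), and DESeq2 called 0 (against 18.0%) and gave no p for Angpt2. At an unadjusted p under 0.05, edgeR gave 1 of 5, against 27.0% of all genes in either direction.

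In ret/ret animals the log2 fold change of thalamus over cortex was -0.31 ± 0.34 (SE) for Ptprb, -0.28 ± 0.52 for Angpt2, 0.16 ± 0.48 for Angpt1, 0.13 ± 0.28 for Tek and 0.09 ± 0.27 for Tie1. All 5 intervals spanned 0, with that of Ptprb at -1.07 to 0.45. Of the 5, 0 were called by edgeR (9.5% of all genes), DESeq2 (17.8%) or limma-voom (9.27%), and 0 had an unadjusted p under 0.05, against 26.7% of all genes in either direction. Within animals, thalamus was above cortex in 3 of 4 ret/wt and 3 of 4 ret/ret animals for both Tek and Tie1, in 2 of 4 and 1 of 4 for Ptprb, in 2 of 4 and 1 of 4 for Angpt2 and in 2 of 4 and 2 of 4 for Angpt1.

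Ratios within a library show the members against each other, and they are given as a description with no test. Ptprb over Tek, the phosphatase over its receptor, was 1.27, 0.840, 1.79 and 1.53 in ret/wt cortex and 2.62, 2.03, 2.39 and 2.34 in ret/ret cortex, per length of exon. The same ratio was 1.12, 1.09, 1.13 and 0.857 in ret/wt thalamus and 1.80, 2.12, 1.40 and 1.56 in ret/ret thalamus. The genotypes did not overlap in this ratio in either region, and the thalamus replicate 3 that was high in Angpt2 did not stand apart. The share of all genes whose ratio to Tek does not overlap was not computed. Tie1 over Tek, the partner over the receptor, had medians of 0.624 in ret/wt cortex, 0.923 in ret/ret cortex, 0.625 in ret/wt thalamus and 0.919 in ret/ret thalamus, with overlap in both regions. Angpt2 over Angpt1, the ligands, had its lowest and highest values at 0.153 and 1.29 in ret/wt cortex, at 0.700 and 8.11 in ret/ret cortex, at 0.215 and 2.80 in ret/wt thalamus and at 0.462 and 2.27 in ret/ret thalamus. The highest ligand ratio, 8.11 in ret/ret cortex replicate 3, came with the lowest Angpt1 of all libraries, 1.61 CPM, and the genotypes overlapped.

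**Figure D4:**
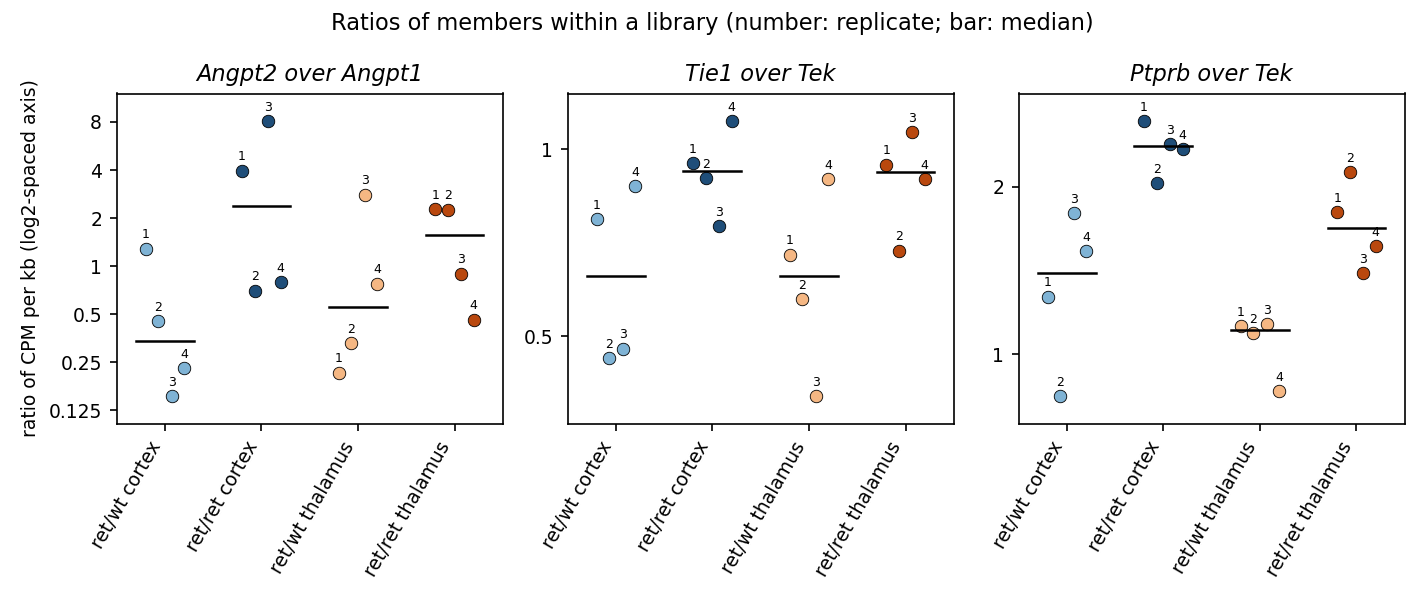
Ratios of CPM per kb of exon (y axes, log2-spaced) within each library, by group (x axis): Angpt2 over Angpt1, Tie1 over Tek and Ptprb over Tek; points are libraries numbered by replicate and bars are medians. Ptprb over Tek is 2.03 to 2.62 in ret/ret cortex above 0.840 to 1.79 in ret/wt cortex, and 1.40 to 2.12 in ret/ret thalamus above 0.857 to 1.13 in ret/wt thalamus. The share of all genes whose ratio to Tek separates in this way was not computed.

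All 5 genes except Angpt1 are known mainly from endothelium, so the endothelial markers were read beside them. Of 15 endothelial markers listed, 13 were tested, and their summed level was 281 to 368 CPM in ret/wt cortex, 357 to 658 CPM in ret/ret cortex, 377 to 525 CPM in ret/wt thalamus and 399 to 775 CPM in ret/ret thalamus. In cortex 11 of 13 had a higher mean in ret/ret and 0 passed at an adjusted p under 0.05, with a median log2 fold change of 0.60, beside 0.01 over all genes tested, and in thalamus 13 of 13 had a higher mean, 0 passed, and the median was 0.37, beside -0.02. Of these 13, 0 were at 0 in any library. Eng, a coreceptor for TGF-beta ligands, was at 16.5 ± 5.46 CPM in ret/wt cortex and 54.1 ± 24.4 in ret/ret cortex (SD, n = 4), and its log2 fold change was 1.74 ± 0.35 (SE), adjusted p = 0.476 by edgeR. Slco1a4, a transporter of the barrier, had 1.39 ± 0.30 and Robo4, an endothelial guidance receptor, had 1.26 ± 0.35 in cortex. In cortex 5 of 13 were higher and 1 lower at an unadjusted p under 0.05 by edgeR, against 375 and 163 of 14288 genes. The lower one was Ly6c1, at -0.58 ± 0.24 (SE; unadjusted p = 0.039 by edgeR), and Flt1 was at -0.11 ± 0.23. In thalamus 1 of 13 was higher and 0 lower at an unadjusted p under 0.05 by edgeR, against 451 and 130 of 14767 genes. The smallest p-values there were those of Eng, at 1.54 ± 0.31, Cdh5, at 0.99 ± 0.49, and Esam, an adhesion molecule, at 0.66 ± 0.33. The part of endothelial content in the levels of the members was not tested.

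Set against the mean log2 CPM of the 13 endothelial markers in the same library, Angpt2 was at -3.36 ± 0.38 in ret/wt cortex and -1.69 ± 0.52 in ret/ret cortex (SD, n = 4), ranging from -3.67 to -2.86 and from -2.22 to -1.08. Ptprb was at 1.33 ± 0.23 and 1.94 ± 0.24 in the same groups, ranging from 1.13 to 1.66 and from 1.68 to 2.15. Neither gene overlapped between genotypes in cortex on this scale. The share of all genes that do not overlap on it was not computed, so this is a description alone. Tie1 was at -1.18 ± 0.35 and -0.84 ± 0.12, and Tek at -0.55 ± 0.42 and -0.78 ± 0.13, both with overlap. In thalamus Ptprb was at 1.04 ± 0.34 in ret/wt and 1.43 ± 0.35 in ret/ret, Tie1 at -1.16 ± 0.42 and -0.95 ± 0.18, and Tek at -0.52 ± 0.18 and -0.83 ± 0.13 (SD, n = 4), all with overlap. Angpt2 was at -2.55 ± 1.73 in ret/wt thalamus, where replicate 3 had the highest value of 0.0059 and the median was -3.28, and at -2.18 ± 0.87 in ret/ret thalamus.

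Most pericyte markers had a lower mean in ret/ret. Of 12 listed, 10 were tested in cortex, where 7 had a lower mean in ret/ret, against 6878 of 14288 genes. There 1 passed as lower at an adjusted p under 0.05 by edgeR, against 1 of 14288 genes. The median log2 fold change was -0.61, beside 0.01 over all genes tested. The 3 with a higher mean were Des (0.46 ± 0.65, SE), Vtn (0.20 ± 0.43) and Anpep (0.07 ± 0.39). In thalamus 12 were tested and 12 had a lower mean, against 7806 of 14767 genes. None passed there (0 of 12), and the median was -0.75, beside -0.02. Rgs5, a regulator of G-protein signalling used as a pericyte marker, fell by 1.70 on the log2 scale in cortex, from 59.5 ± 7.22 to 18.2 ± 4.14 CPM (SD, n = 4), with an adjusted p of 0.041 by edgeR. Abcc9 and Kcnj8, the subunits of a pericyte potassium channel, had log2 fold changes of -2.69 ± 0.36 and -3.02 ± 0.62 in cortex, with adjusted p of 0.066 and 0.476, and -1.79 ± 0.49 and -1.71 ± 0.55 in thalamus, where Rgs5 was at -1.43 ± 0.19 (adjusted p 0.216 by edgeR). Of the 12 markers, 1 was at 0 in any library, Higd1b, in 2 ret/ret cortex libraries. The summed level of the 12 was 113 to 172 CPM in ret/wt cortex, 57.1 to 128 CPM in ret/ret cortex, 117 to 361 CPM in ret/wt thalamus and 69.5 to 243 CPM in ret/ret thalamus. Angpt1, which mural cells among others make, overlapped between genotypes in both regions, and the part of pericyte content in its level was not tested.

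Markers of other cell types and regions were read in the same fits, with medians of the log2 fold change of ret/ret over ret/wt given for cortex and then thalamus. Astrocyte markers had a higher mean in ret/ret in 5 of 5 in both regions (0.50 and 0.37), and so did microglia markers (0.13 and 0.60). Blood markers had a higher mean in ret/ret in 3 of 3 tested (0.77 and 1.27). Summed over the 4 listed, they were at 44.2 CPM in ret/ret cortex replicate 1 and 105 CPM in ret/ret thalamus replicate 1. The other ret/ret libraries were at 4.17 to 21.6 CPM in cortex and 9.65 to 19.6 CPM in thalamus. The ret/wt libraries were at 2.17 to 21.6 CPM and 4.16 to 27.8 CPM. Neuron markers (-0.08 and -0.07), oligodendrocyte markers (0.27 and 0.26), fibroblast markers (-0.04 and -0.02) and smooth muscle markers (-0.14 and 0.15) went in both directions. Thalamus markers had a higher mean in ret/ret cortex in 5 of 5 (0.85) and a lower one in ret/ret thalamus in 4 of 5 (-0.12). Choroid plexus markers had a lower mean in ret/ret cortex in 4 of 4 tested (-1.72, and -0.40 in thalamus). Their sum was 1125 CPM in ret/wt cortex replicate 4 and 16.9 to 67.5 CPM in the other ret/wt cortex libraries. The ret/ret cortex libraries were at 9.11 to 46.8 CPM. Cerebellum markers had a higher mean in 3 of 3 tested (1.36 and 1.34). In cortex their sum was 2357 CPM in ret/ret replicate 2 and 974 CPM in ret/wt replicate 3. The other cortex libraries were at 3.21 to 31.1 CPM. Cortex markers had medians of -0.07 and -0.22. None of these markers passed at an adjusted p under 0.05 by edgeR (0 in either region), and their part in the levels of the 5 genes was not tested.

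Beside the receptors, 28 other genes of Tie signalling were listed (ligands and binding partners, adaptors, the PI3 kinase and AKT branch, FOXO factors and junction partners), of which 26 were tested in each region. In cortex 0 of 26 passed at an adjusted p under 0.05 (0.021% of all genes), and the median log2 fold change was -0.06. At an unadjusted p under 0.05 by edgeR, 1 of 26 was higher and 0 lower, against 2.62% of all genes higher. In thalamus 0 of 26 passed (0.0% of all genes), and the median was 0.04. There 1 of 26 was higher and 0 lower at an unadjusted p under 0.05, against 3.05% of all genes higher. The gene higher in both was Kdr, the main VEGF receptor of endothelium, at 11.1 ± 3.42 and 26.7 ± 10.7 CPM in cortex (SD, n = 4; log2 fold change 1.29 ± 0.33, adjusted p 0.728 in edgeR) and 13.6 ± 5.40 and 24.8 ± 10.1 CPM in thalamus (0.91 ± 0.34, adjusted p 1.0). Pik3ca, a catalytic subunit of PI3 kinase, was at 0.76 ± 0.35 in cortex, and Cdh5, which codes for VE-cadherin, was at 0.67 ± 0.40 in cortex and 0.99 ± 0.49 in thalamus. Itgav, an integrin chain, was at -0.67 ± 0.33 in thalamus. Angpt4, a further Tie2 ligand, was listed at 0.536 CPM or less in every library and was not tested.

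The angiopoietin-like family, secreted relatives that do not bind Tie receptors, had 4 genes tested in cortex and 5 in thalamus, and 0 passed in either, with median log2 fold changes of -0.20 and -0.05. The lowest p-values belonged to Angptl1 (-0.69 ± 0.71), Angptl2 (-0.45 ± 0.62) and Angptl6 (0.06 ± 0.30) in cortex and to Angptl6 (0.29 ± 0.33), Angptl2 (-0.43 ± 0.52) and Angptl7 (0.19 ± 0.55) in thalamus. Genes of Weibel-Palade bodies, the endothelial granules that store angiopoietin-2, were read beside Angpt2. Of these, 11 of 12 were tested, and the medians were 0.17 and 0.06. In cortex 1 passed as higher (0.021% of all genes passed) and in thalamus 0 (0.0%). The gene that passed was Edn1, coding for the vasoconstrictor endothelin-1, at 2.20, 2.78, 3.91 and 2.71 CPM in ret/wt cortex and 32.5, 18.4, 24.0 and 18.6 CPM in ret/ret cortex. Edn1 rose by 3.02 ± 0.28 (SE) on the log2 scale there, with an adjusted p of 0.013 by edgeR, and by 2.67 ± 0.22 with both regions of an animal summed, with an adjusted p of 0.0038. In thalamus its log2 fold change was 2.31 ± 0.33, with no overlap and an adjusted p of 0.216. Vwf, the main protein of the granules, was at 30.8, 19.1, 8.57 and 25.5 CPM in ret/wt cortex and 96.7, 65.8, 68.8 and 80.1 CPM in ret/ret cortex, with a log2 fold change of 1.91 ± 0.35 and an adjusted p of 0.361. In thalamus ret/wt replicate 4 held 226 CPM of Vwf, above every ret/ret library, and was not the library high in Angpt2. Plat, coding for tissue plasminogen activator, was at -0.41 ± 0.24 on the log2 fold change scale in cortex, and in thalamus Rab3d, a small GTPase of secretory granules, was at 0.67 ± 0.42 and Igfbp7 at 0.48 ± 0.32.

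**Figure D5:**
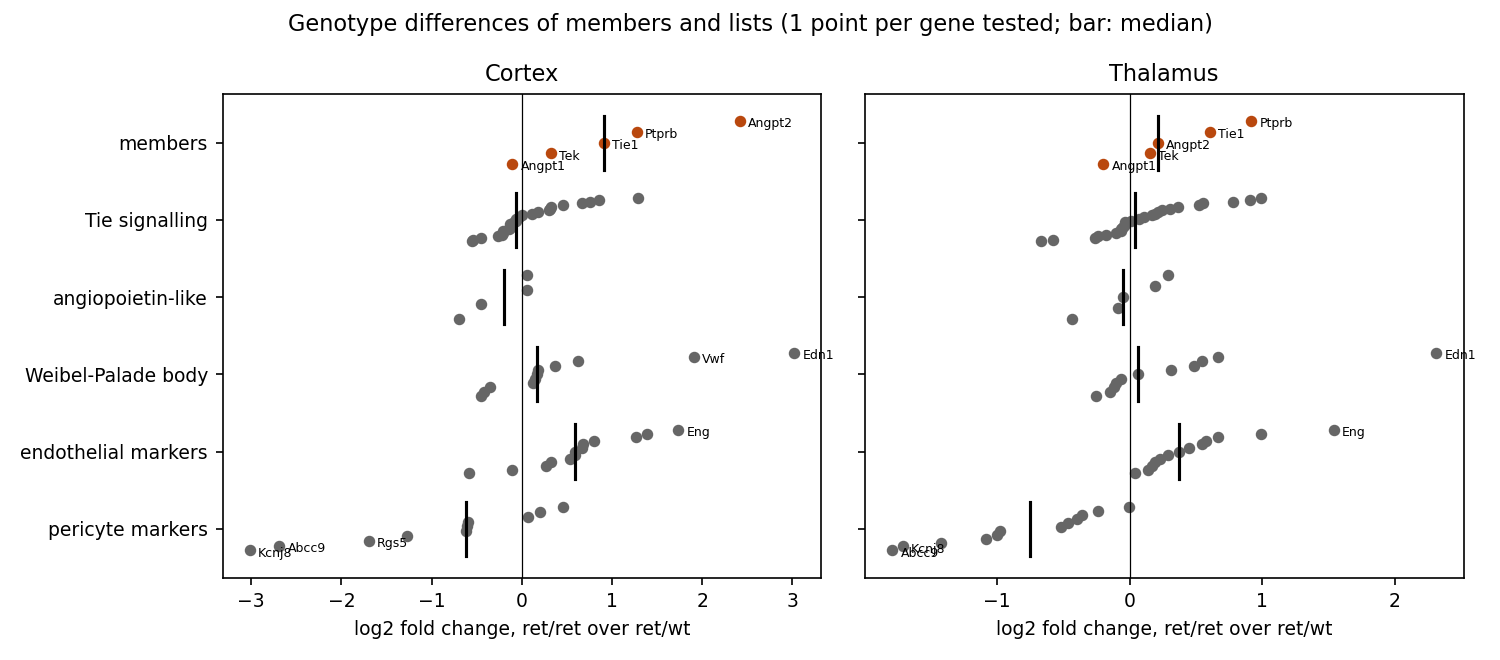
Log2 fold change of ret/ret over ret/wt (x axes) in cortex (left) and thalamus (right) for the 5 genes and the genes of each list tested (y axis), with 1 point per gene and the median as a bar. Endothelial markers have medians of 0.60 and 0.37, pericyte markers of -0.61 and -0.75, and the Tie signalling list of -0.06 and 0.04.

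For each gene the genes most like it were taken as the 3 with the highest Pearson r of log2 CPM over the 16 libraries, among 12771 genes, as a description. Tek was most like Pecam1 (r = 0.892), Abcb1a (0.853) and Emcn (0.846), all 3 on the endothelial list. Ptprb was most like Adgrl4 (r = 0.938), Cd93 (0.928) and Tnfsf10 (0.916), of which the first 2 are known endothelial surface proteins. Tie1 was most like H2-Q7 (r = 0.935), H2-Q6 (0.931) and H2-K1 (0.919), class I histocompatibility genes with near-identical copies among which reads may be split. Angpt2 was most like Pxmp4 (r = 0.823), Slco1a4 (0.792) and Serpinb6b (0.780), and Angpt1 was most like Tmem255a (0.837), Ube2n-ps1 (0.819) and Gm8281 (0.786). Among the 5 genes themselves, r was 0.695 both for Angpt2 with Ptprb and for Tek with Tie1, 0.682 for Tie1 with Ptprb, 0.611 for Tek with Ptprb, 0.500 for Angpt2 with Tek and 0.412 for Angpt2 with Tie1. Angpt1 had r from -0.303 to -0.071 with the other 4. The libraries share animals, groups and depth, and so these values are no measure of independent agreement.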

How the data were processed

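RNA-seq was done on cortex and thalamus of 8 mice, which the labels give as separate animals, 4 per genotype. The authors deposited estimated counts per gene, made with kallisto 0.44.0 on GRCm38.p6 per the submitters' processing notes; 100.0% of the values above 0 were not whole numbers, and they were rounded to whole counts. How transcripts were summed to genes, and any use of strand, are not given in the sources used here. Of the 21804 gene IDs, 21581 (99.0%) were matched to symbols in GENCODE M21, and Cldn5, Erg, Lect2 and Myh11 are not analysed here. A floor of 3 counts came to 0.103 to 0.224 CPM and covers counting error only.

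Genes were kept by edgeR's filterByExpr (minimum count 10, minimum total 15) within each comparison, scaled by TMM and tested by quasi-likelihood F-tests, with Benjamini-Hochberg adjustment over all genes kept. SEs were derived from the fold change and F. Log2 CPM used a prior count of 1, and levels per kb divided CPM by the union of exons. Alternatives were other scaling, no filter, DESeq2, limma-voom, each replicate left out, the 2 animals with Y-linked reads left out, and a replicate block. Same-numbered cortex and thalamus libraries of a genotype come from 1 animal per the labels. The mean correlation of their deviations was 0.0608 in ret/wt and 0.0884 in ret/ret, from -0.017 to 0.19 and from -0.0039 to 0.24. Of the pairs, 2 of 4 in ret/wt and 1 of 4 in ret/ret correlated best with their own number.

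The 5 genes and the lists were chosen with earlier results of these data known. Of each list, the rule was to name the 3 genes with the smallest unadjusted p in cortex and in thalamus between genotypes and every gene with an adjusted p under 0.05. It was followed for the Tie signalling, angiopoietin-like, Weibel-Palade, endothelial and pericyte lists, while the other marker lists are given by counts and medians alone. Genes most like a member were sought among those with a mean log2 CPM of at least 1. Prkcd, Acot4, Kdm5d, Higd1b, Angpt4, Ly6c1, Flt1, Des, Vtn and Anpep were named outside this rule, after their values were seen. The edgeR fit was tried on simulated counts with planted changes, for the genotype comparison in cortex and for the interaction alone. Those libraries were drawn as independent, without shared animals. Versions were R 4.3.3, edgeR 4.0.16, limma 3.58.1, DESeq2 1.42.0, matplotlib 3.10.9, Python 3.11.15, scipy 1.17.1, numpy 2.4.6 and pandas 2.3.3.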

Additional observations from a re-analysis of the deposited data

Results flagged for a closer look

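Within a group of 4 libraries, a library was singled out where its gap to the nearest other library exceeded Dixon's 95% critical share of the group's range. This held in 5 of the 20 groups tested, and chance gives about 1 in 20 for independent groups of normal values. The groups here share libraries across genes, and CPM were used without logs, so the count is no test of an excess. Angpt2 in ret/wt thalamus replicate 3 was the highest of its group at 20.4 CPM, with a gap of 0.943 of the range. Angpt1 in ret/wt thalamus replicate 4 was the lowest of its group at 4.45 CPM (0.836). Tie1 in ret/ret cortex replicate 1 was the highest of its group at 22.1 CPM (0.880). That library also had the highest summed endothelial markers of its group, 658 CPM, and their part in its Tie1 level was not tested. Ptprb was lowest in ret/wt cortex replicate 4 at 33.6 CPM (0.852) and highest in ret/wt thalamus replicate 2 at 54.8 CPM (0.866).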

How the results depend on the processing

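Of 410 alternative fold changes of the 5 genes, 391 kept their direction and 19 reversed it, 16 of these with a replicate left out, in 10 of 30 results. Members called went from 0 to 2 in cortex under DESeq2, and in the summed animals from 0 to 1 under DESeq2 and 1 under the mean of both regional contrasts. The Angpt1 interaction term reversed to 0.19 under limma-voom, 0.11 without the animals with Y-linked reads and 0.0036 with the replicate block. With a replicate left out, the log2 fold change of Angpt1 ran from -0.44 to 0.23 in cortex, and in thalamus that of Angpt2 ran from -0.12 to 1.81 and that of Tek from -0.049 to 0.30. Thalamus over cortex ran from -0.11 to 0.60 for Angpt1 and -0.026 to 0.16 for Ptprb in ret/wt, and from -0.19 to 0.52 for Angpt1 and -0.75 to 0.040 for Angpt2 in ret/ret. The interaction ran from -0.49 to 0.29 for Angpt1, -0.44 to 0.058 for Tek and -0.54 to 0.044 for Tie1. Members with an unadjusted p under 0.05 numbered 2 to 3 in cortex, 1 to 2 in thalamus, 0 to 1 between regions in ret/wt, 0 to 1 for the interaction and 1 to 3 in the sums.

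Over all genes, the calls were 3 in cortex (0 to 38 under the alternatives), 0 in thalamus (0 to 37), 1813 between regions in ret/wt (690 to 2591), 1398 in ret/ret (109 to 2597), 0 for the interaction (0 to 4) and 2 in the sums (0 to 80). The replicate block gave 1487 and 1177 calls between regions, and 0 in cortex, in thalamus and for the interaction, and it changed no adjusted call of the 5 genes. Across genotypes the libraries share only a number: the mean correlation of their deviations was -0.0027 in cortex and -0.024 in thalamus, and 0 of 4 pairs in each correlated best with their own number. No paired analysis was possible for the summed animals because each animal has 1 genotype. The cause of each change was not tested. With 4 libraries a group, 2-fold differences in either direction lie within the 95% intervals of Angpt1 in cortex and Angpt2 in thalamus.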
